A study of Mus musculus with 27 samples.

Results

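The genes examined were 10 parts of bone morphogenetic protein (BMP) signalling: the Id factors Id1, Id2, Id3 and Id4, the ligands Bmp2 and Bmp4, the type I receptors Bmpr1a and Bmpr1b, and the secreted antagonists Grem1 and Chrdl1. They were taken by symbol from the probe annotation and not by their values, and all 10 were among the 19937 genes measured, each by 1 probe set. They were followed over 27 mouse Affymetrix arrays, 1 per sample. Of these, 10 were immortalized lines derived from neural stem cells (NSCs), the dividing precursors of neurons, astrocytes and oligodendrocytes, and 2 were normal NSC cultures. Another 12 were tumors, with lines 1, 31, 59 and 123 giving 3 each, and 3 were subcutaneous tissue (SubQ).

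By the labels, lines 3, 28, 31, 59, 95 and 116 were p53 mutant, and lines 119, 120, 123 and 331 were wild type (WT). The normal NSCs and SubQ tissue were WT, the tumors of lines 31 and 59 were p53 mutant, and those of lines 1 and 123 were WT. All samples, the cultured cells included, carried the same host strain label, CB17/ICR-Prkdcscid/IcrCrl, a severe combined immunodeficient mouse that lacks functional B and T cells but keeps macrophages and stroma. The labels did not name the p53 allele or say how the lines were immortalized. Each line in culture was measured once, line 1 was measured only as tumors, and no treatment or age was given. Samples of a group were labelled as biological replicates without naming separate animals, so a p-value reflects only how far the samples at hand differ, which may be technical in part.

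BMPs are secreted ligands of the TGF-beta superfamily. They bind pairs of type I and type II serine/threonine kinase receptors, which phosphorylate SMAD1, SMAD5 and SMAD8; these join SMAD4 and enter the nucleus. The Id genes are among the best known direct targets of these SMADs. Id proteins hold a helix-loop-helix but no DNA-binding region, so they pair with E proteins such as TCF3, TCF4 and TCF12 and keep them from partnering factors such as OLIG1 and OLIG2. In neural stem cells, BMP signalling is known for favouring astrocytes and quiescence over oligodendrocytes and neurons.

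Sequences just before the start of 3 Id genes are shown as the nearest part of the promoters of genes known as direct SMAD targets. The best-studied BMP-responsive elements of Id genes lie further upstream, outside these windows. RefSeq windows of 250 bases before the start (GRCm38.p6) matched 7 of the 10 genes, and those of Id2, Id3 and Id4 follow, 5′ to 3′ on the gene's own strand. Capitals mark GGCGCC, a GC-rich sequence of the kind bound by BMP SMADs, and CAGAC (or GTCTG on the other strand), which holds the short SMAD-binding element. The Id2 window was chr12:25096093-25096342 on the minus strand, that of Id3 chr4:136143572-136143821 on the plus strand, and that of Id4 chr13:48260866-48261115 on the plus strand.
Id2: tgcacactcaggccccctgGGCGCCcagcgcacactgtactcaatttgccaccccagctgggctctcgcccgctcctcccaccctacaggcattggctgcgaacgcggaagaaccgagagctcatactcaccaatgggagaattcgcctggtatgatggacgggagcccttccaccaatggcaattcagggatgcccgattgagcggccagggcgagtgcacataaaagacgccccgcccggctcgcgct
Id3: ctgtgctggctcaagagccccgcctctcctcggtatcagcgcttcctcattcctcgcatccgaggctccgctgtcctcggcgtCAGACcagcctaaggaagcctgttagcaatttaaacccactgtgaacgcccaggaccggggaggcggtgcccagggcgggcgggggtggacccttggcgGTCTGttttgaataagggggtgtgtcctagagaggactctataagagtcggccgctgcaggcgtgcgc
Id4: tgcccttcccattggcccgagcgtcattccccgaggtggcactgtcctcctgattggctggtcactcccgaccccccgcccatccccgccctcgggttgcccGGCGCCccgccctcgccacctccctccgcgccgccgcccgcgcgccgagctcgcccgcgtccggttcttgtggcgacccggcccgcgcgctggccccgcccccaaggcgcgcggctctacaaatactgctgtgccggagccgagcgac
Both strands were searched. GGCGCC was found 1 time in the Id2 window, starting 231 bases before the gene, and 1 time in the Id4 window, starting 148 bases before it. The Id3 window held no GGCGCC and 2 matches to CAGAC, 167 and 68 bases before the start. Of all 32851 windows of this length, 9.59% held GGCGCC and 42.2% held CAGAC. The 3 windows were rich in G and C, with 62.8% for Id2 and Id3 and 75.6% for Id4. A match is a description of the letters and not a site.

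The values are log2 expression levels as deposited. Cell and tissue arrays were not on 1 scale: array medians were 7.02 to 7.08 in cells, 5.47 to 5.57 in tumors and 5.75 to 5.78 in SubQ tissue. None of the 180 pairs of a cell and a tissue array shared an equal value. Pairs of tissue arrays shared 21 to 460 and pairs of cell arrays 0 to 12, so that absence alone tells little. Because of the medians, tests were made within cells and within tissues. The 3 SubQ arrays stood apart, with a narrower spread over genes (SD 0.869 to 1.02, against 1.63 to 1.79 in tumors) and lower correlations with each other (r = 0.656 to 0.720, against 0.936 to 0.985 between tumors). Of the labelled cell types, the normal NSCs had all 7 neural stem cell markers measured above the 25th percentile of gene means. Subcutaneous markers of fat and muscle were higher in SubQ tissue than in tumors, as given beside that comparison.

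The Id genes in culture came first. Id1 was 7.25 and 7.40 in the normal NSCs and ranged over the 10 lines from 7.45 (line 3) through a median of 7.92 to 9.11 (line 119). Every line thus lay above both NSC arrays, line 3 by the least, but the difference of 0.74 ± 0.37 (SE) did not pass the test (limma adjusted p = 0.226). Id2 was 8.96 and 9.03 in the NSCs, inside the range of the lines, which went from 6.89 (line 3) through 8.74 to 10.01 (line 119). Id3 was 8.29 and 8.15 in the NSCs, also inside the lines' range of 6.89 (line 95) to 9.83 (line 119), with a median of 8.51. Id4 was 7.43 and 8.05 in the NSCs, and 7.82 (line 116) to 11.45 (line 95) with a median of 8.91 in the lines. None of Id2 (-0.39 ± 0.55, adjusted p = 0.753), Id3 (0.23 ± 0.55, adjusted p = 0.871) and Id4 (1.26 ± 0.70, adjusted p = 0.289) passed limma's test of lines against NSCs. Id4 passed only with the replicate number as a block, at 0.59 with an adjusted p of 0.0412, the lowest of its alternatives. That block compared only lines 3 and 28 with the NSCs, as no other line shared a replicate number with them.

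The lines differed among themselves in which Id gene was high. Line 119 had the highest Id1, Id2 and Id3 of the 10 lines (9.11, 10.01 and 9.83). Line 95 had the highest Id4 (11.45, against 9.58 in the next line, line 31) and at the same time the lowest Id3 (6.89). Line 3 had the lowest Id1 and Id2 (7.45 and 6.89). The SD over the lines was 0.55 for Id1, 0.84 for Id2, 0.85 for Id3 and 1.06 for Id4, so the spread between lines was as wide as or wider than the difference from NSCs for Id2 and Id3.

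**Figure D1:**
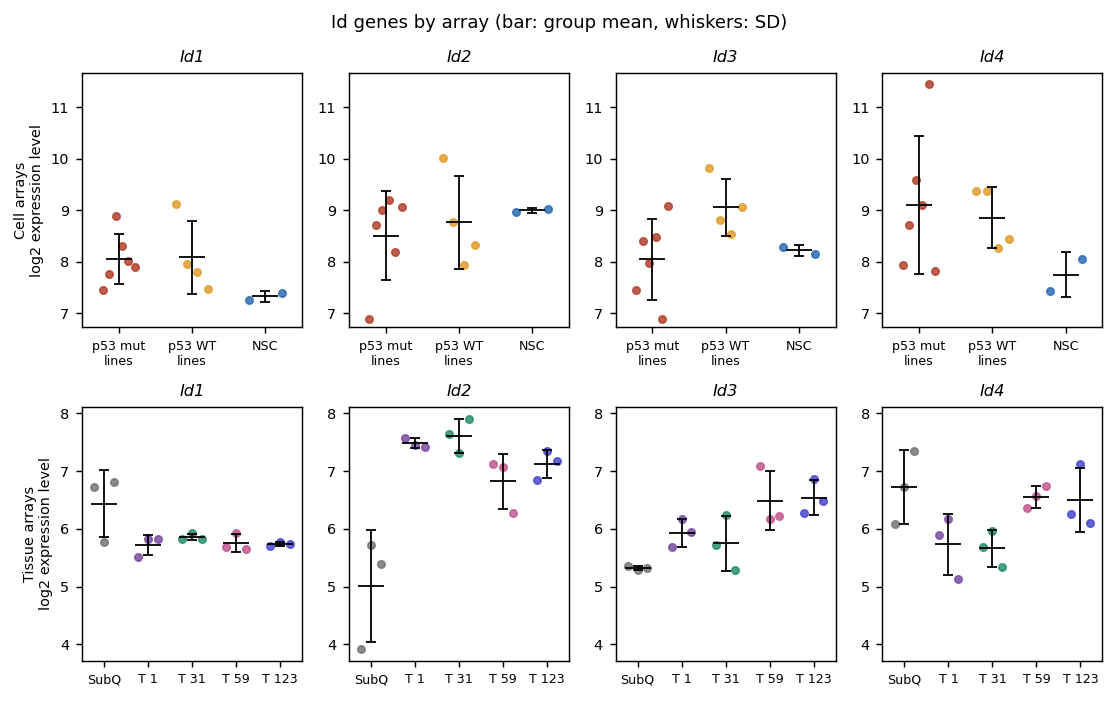
Log2 expression (vertical axis, as deposited) of Id1, Id2, Id3 and Id4 on each array, by group (horizontal axis), with points for single arrays, bars for group means and whiskers for the SD; T stands for the tumors of a line. Cell and tissue arrays are on separate scales and can be compared only within cells or within tissues; Id1 lies between 5.52 and 5.94 in all 12 tumors, and line 95 stands highest for Id4 at 11.45.

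Bmp4, a ligand that promotes astrocyte fate, was higher in the lines than in normal NSCs. It was 6.74 and 6.33 in the NSCs and ranged over the lines from 6.75 (line 28) through a median of 8.79 to 9.95 (line 119). The groups did not overlap, though line 28 lay beside the first NSC array. The change was 2.28 ± 0.67, a fold of 4.85 (limma adjusted p = 0.036). This call was lost without line 3 (2.20), without the first NSC array (2.48) or the second (2.07), and with the mutant lines alone (1.82). It was also lost with trend and robust settings (2.28) and with the replicate block (1.61). That block compared only lines 3 and 28 with the NSCs. With both NSC arrays kept, adjusted p ran from 0.00375 to 0.151 over the alternatives. Bmp2, the other ligand, was 5.95 and 5.83 in the NSCs and 5.63 to 6.79 in the lines, and its means lay below the 25th percentile of gene means in both groups. Its difference was -0.023 ± 0.22 (adjusted p = 0.972), and line 95 at 6.79 was the only line above 5.82.

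The receptors differed in behaviour. Bmpr1b, a type I receptor found in neural precursors, was 8.42 and 8.15 in the NSCs and ran over the lines from 6.02 (line 95) through a median of 6.49 to 7.86 (line 116). All 10 lines lay below both NSC arrays, with line 116 nearest. Bmpr1b fell by 1.72 ± 0.37, a fold of 3.29 (limma adjusted p = 0.00592). The call was lost without the first NSC array (-1.58, adjusted p = 0.101) or the second (-1.85, adjusted p = 0.0545), and the adjusted p went down to 0.000141 under other alternatives. Bmpr1a, the more widely expressed type I receptor, varied little: 10.76 and 10.73 in the NSCs, and 10.17 (line 31) through 10.56 to 10.79 (line 120) in the lines. Its difference of -0.19 ± 0.14 did not pass (adjusted p = 0.473).

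Of the antagonists, Grem1, which binds BMP2 and BMP4 and keeps them from their receptors, was higher in the lines. It was 7.21 and 6.93 in the NSCs, and 7.97 (line 59) through 9.72 to 10.85 (line 3) in the lines, with no overlap. Grem1 rose by 2.52 ± 0.67, a fold of 5.73 (limma adjusted p = 0.0208). The call was lost without the first NSC array (2.66), without the second (2.38) and with the mutant lines alone (2.44), and adjusted p ran from 0.00033 to 0.192. Chrdl1, a chordin-like BMP binder, was 9.67 and 9.51 in the NSCs and the most variable over the lines, from 6.82 (line 28) through 9.06 to 10.64 (line 95). Its difference was -0.75 ± 0.86 (adjusted p = 0.682).

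In all, 3 of the 10 genes passed in lines against NSCs, 2 higher and 1 lower, where 15% of all genes passed (6.79% higher and 8.22% lower). The groups did not overlap for 4 of the 10, against 21.3% of all genes. With either NSC array left out, none of the 10 passed, and the other NSC array was then assumed to vary like the lines. Markers of other cell types moved with this comparison. Of 7 neural stem cell markers 4 were called lower in the lines, and their mean level was 9.81 to 9.86 in NSCs and 6.96 to 7.91 in lines. Of 8 astrocyte markers 6 were lower and 1 higher, with means of 8.68 to 8.78 and 7.1 to 7.59. Mural and smooth muscle markers, 3 of 8 called higher, had means of 6.65 to 6.85 in NSCs and 7.92 to 8.90 in lines, and fibroblast markers, 2 of 8 called higher, 6.90 to 6.98 and 7.28 to 9.08. Their part in the Bmp4, Bmpr1b and Grem1 results was not tested. In samples of many cells, fewer cells of a type and less RNA per cell cannot be told apart.

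**Figure D2:**
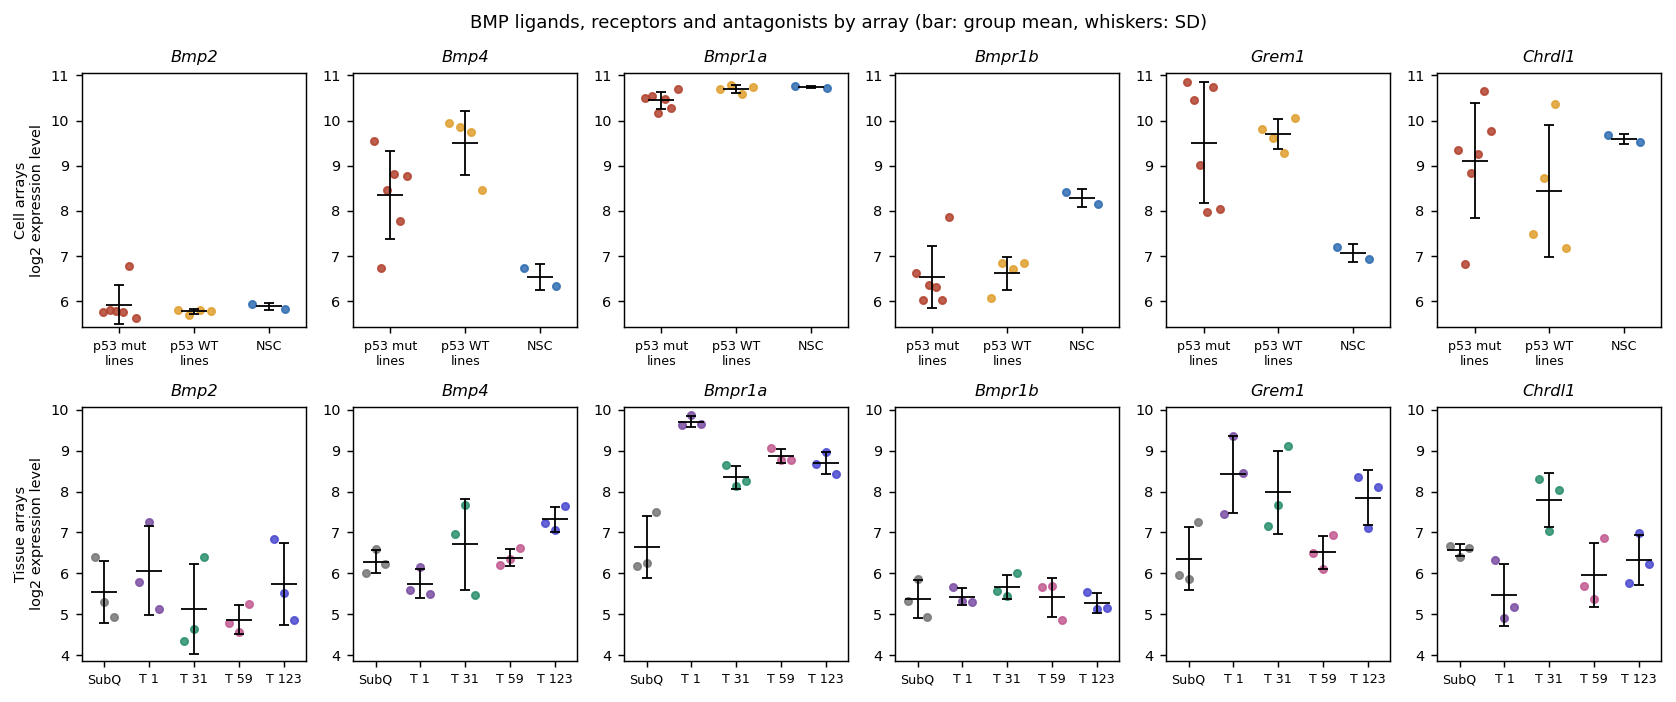
Log2 expression (vertical axis, as deposited) of Bmp2, Bmp4, Bmpr1a, Bmpr1b, Grem1 and Chrdl1 on each array, by group (horizontal axis), with points for single arrays, bars for group means and whiskers for the SD; T stands for the tumors of a line. Among the cells, both normal NSC arrays lie below all 10 lines for Bmp4 and Grem1 and above all 10 for Bmpr1b; tissue arrays are on another scale.

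Around these genes, 62 others of BMP signalling and its helix-loop-helix partners were measured, of 65 listed. In lines against NSCs 13 passed, 6 higher and 7 lower, where 15% of all genes passed, and their median change was 0.051, against -0.0051 over all genes. Of 11 further ligands 1 passed: Bmp7 fell by 2.88 ± 0.16, from 9.76 in NSCs to 6.87 in lines. Of 9 receptors and co-receptors, Acvr1, a type I receptor, rose by 0.91 ± 0.16, and Bmpr2, the type II partner, fell by 0.55 ± 0.12. Of 16 antagonists and extracellular regulators, 3 rose and 1 fell. Fstl1, a follistatin-like secreted protein, rose by 3.64 ± 0.32, from 7.46 to 11.11, Crim1 by 1.66 ± 0.32 and Twsg1, a BMP binder that works with chordin, by 1.13 ± 0.18.

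Inside the cell, 2 of 8 SMADs and their ligases passed: the inhibitory Smad7 rose by 1.02 ± 0.14 and Smurf1, a ubiquitin ligase for BMP SMADs, by 0.71 ± 0.18. Of 7 other BMP targets, Zfp423 fell by 0.96 ± 0.13. Of 11 helix-loop-helix partners and neural factors 3 passed, all lower: Olig1 fell by 3.82 ± 0.11, Olig2 fell by 3.66 ± 0.13 and the E protein gene Tcf12 fell by 0.58 ± 0.18. All 13 passed limma at adjusted p-values up to 0.0431 and did not overlap between the groups. Over all 62, called or not, the groups did not overlap for 19, against 21.3% of all genes. With 1 NSC array left out, Bmpr2 (-0.51 and -0.60), Smurf1 (0.77 and 0.66) and Tcf12 (-0.50 and -0.66) were lost without the first and without the second, and Crim1 (1.58) without the second. Tcf12 was also lost without any of lines 3, 28, 31, 59, 95, 116 or 123, at -0.60 to -0.56. With the mutant lines alone Smurf1 (0.73), and with the WT lines alone Bmpr2 (-0.56) and Tcf12 (-0.54), were not called. Tcf12 (-0.51) was also not called with the replicate block, which compared only lines 3 and 28 with the NSCs.

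**Figure D3:**
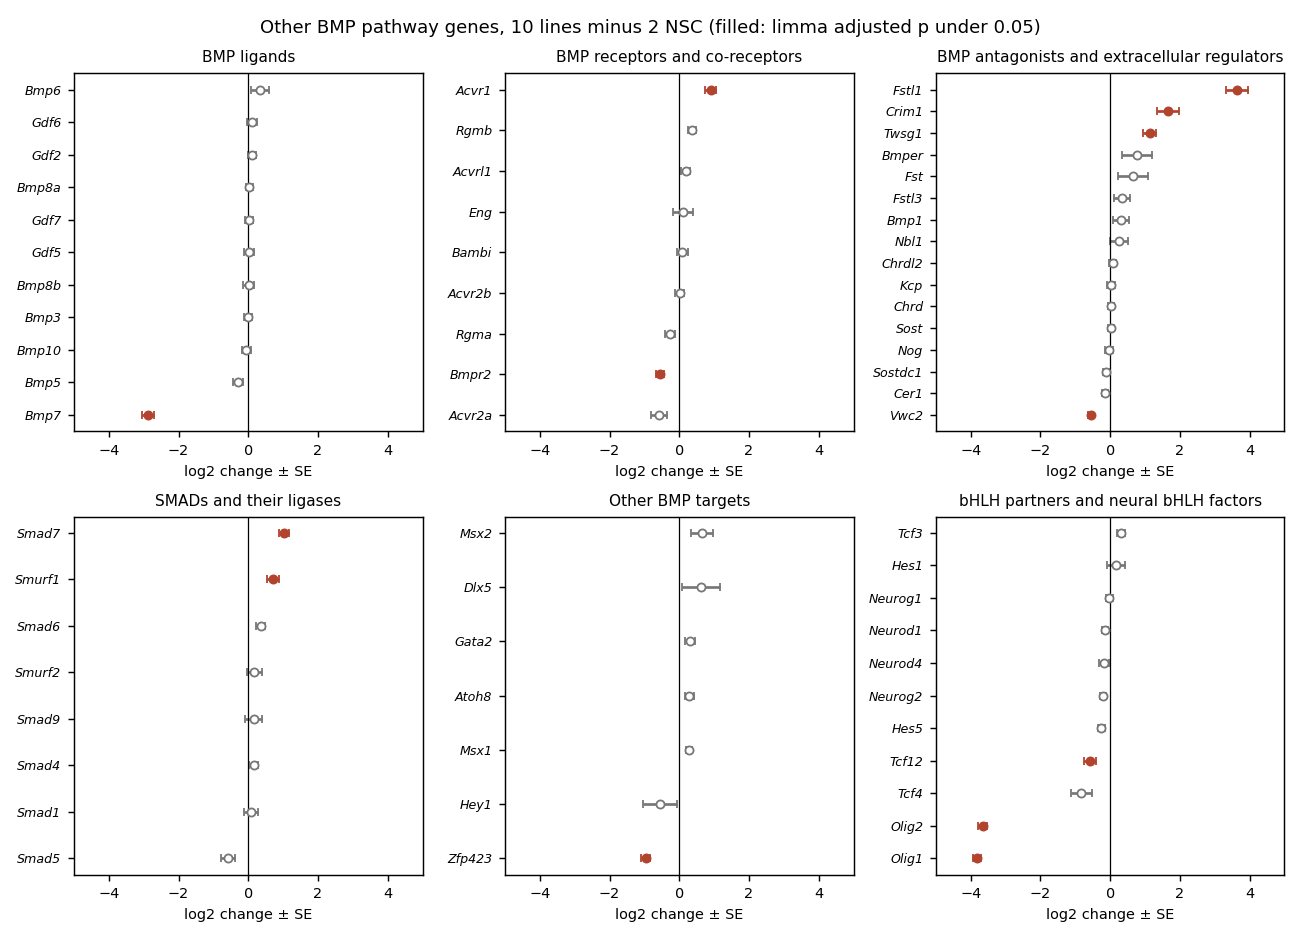
Log2 changes (horizontal axis) of the measured genes of the BMP lists, by list, in lines against normal NSCs; each point is 1 gene with its standard error, and filled points passed limma at an adjusted p under 0.05. Olig1 (-3.82), Olig2 (-3.66) and Bmp7 (-2.88) lie furthest down and Fstl1 (3.64) furthest up.

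Between p53 mutant and WT lines, none of the 10 genes passed limma, where 4 of 19937 genes (0.0201%) did. An unadjusted p under 0.05 was found for 3 of the 10, and for 1701 of all 19937 genes. Id3 was 6.89 to 9.09 with a median of 8.19 in the 6 mutant lines, and 9.83, 8.80, 8.53 and 9.07 in WT lines 119, 120, 123 and 331. The difference was -1.01 ± 0.40 (adjusted p = 0.520), and the groups overlapped. Bmp4 was 6.75 to 9.55 with a median of 8.61 in the mutant lines, and 9.95, 9.86, 9.74 and 8.46 in the WT lines (-1.15 ± 0.49, adjusted p = 0.565). Bmpr1a differed by -0.26 ± 0.10 (adjusted p = 0.538). None of the 62 other pathway genes passed either, and 2 had an unadjusted p under 0.05, against the 1701 of 19937 over all genes.

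Tumors were set against SubQ tissue, the labelled tissue of the tumors. The fit took the 12 tumors as independent, though several came from each line. With the line as a random block (consensus correlation of tumors of 1 line -0.021), no call of the 10 genes changed. That correlation is 1 value for all genes, and single genes such as Bmpr1a differed between lines, as given below. Id2 was 3.91, 5.73 and 5.39 in the SubQ samples and 6.28 to 7.90 with a median of 7.33 in the 12 tumors, with no overlap. Id2 rose by 2.25 ± 0.31, a fold of 4.76 (limma adjusted p = 5.51e-06). Id3 was 5.36, 5.28 and 5.32 in SubQ tissue and 5.28 to 7.08 with a median of 6.19 in tumors, with 1 tumor (line 31, replicate 3) as low as the lowest SubQ sample. Id3 rose by 0.86 ± 0.27 (adjusted p = 0.00833). Mean Id2 and Id3 of the SubQ samples lay below the 25th percentile of gene means there, and signal of that size can be background.

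Id1 went the other way. It was 6.73, 5.77 and 6.82 in SubQ tissue. In the tumors Id1 stayed within 5.52 to 5.94, with a median of 5.80. Its SD over the tumors, 0.12, was the smallest of the 10 genes. Some tumors had an identical deposited Id1 value, 5.8242 in replicate 3 of line 1 and in replicates 1 and 3 of line 31. How these equal values arose was not tested. The second SubQ sample lay inside the tumor range. Id1 fell by 0.67 ± 0.17 (limma adjusted p = 0.00157), which was -0.39 relative to the median gene, -1.0 without that sample and -1.14 after quantile normalization. Id4 was 6.08, 6.72 and 7.36 in SubQ tissue and 5.13 to 7.13 in tumors, at -0.61 ± 0.33 (adjusted p = 0.106). It passed without the first SubQ sample (-0.93), without the second line 123 tumor (-0.70), after quantile normalization (-1.30) and with each tumor line as its own group (-0.61), over an adjusted p range of 0.0075 to 0.500.

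Of the other genes, Bmpr1a was 6.17, 6.25 and 7.51 in SubQ tissue and 8.13 to 9.87 with a median of 8.77 in tumors. All tumors lay above all SubQ samples, and Bmpr1a rose by 2.26 ± 0.34, a fold of 4.79 (limma adjusted p = 1.33e-05). Over the alternatives that kept all arrays, the rise of Bmpr1a was 1.43 to 2.40, so its size depends on the processing. Grem1 was 5.96, 5.86 and 7.26 in SubQ tissue and 6.11 to 9.35 with a median of 7.57 in tumors, and rose by 1.33 ± 0.55 (adjusted p = 0.0366). Its call was lost without the first SubQ sample (1.13), the second (1.08) or the first line 123 tumor (1.27), and after quantile normalization (0.84); adjusted p ran from 0.00994 to 0.206. Bmp2 (-0.095 ± 0.52), Bmp4 (0.26 ± 0.42), Bmpr1b (0.076 ± 0.21) and Chrdl1 (-0.17 ± 0.57) did not pass, at adjusted p-values of 0.584 to 0.874.

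Thus 5 of the 10 genes passed, 4 higher and 1 lower, in a comparison in which 76.5% of all genes passed, 30.7% higher and 45.8% lower. That is a smaller share than over all genes. The groups did not overlap for 2 of the 10, Id2 and Bmpr1a, against 52.5% of all genes. The median change of all genes was -0.28 as deposited, -0.14 with arrays centred and -0.11 after quantile normalization. Id1, Id2, Id3 and Bmpr1a kept their direction and call under these scalings. Markers of other cells moved with the comparison: all 8 macrophage markers were called higher in tumors (means of 5.97 to 6.33 in SubQ tissue and 8.06 to 9.13 in tumors), 6 of 8 fibroblast markers were higher, and 4 of 11 endothelial markers were higher and 2 lower (5.69 to 5.84 and 5.95 to 7.09). All 7 adipocyte markers (7.32 to 7.62 and 5.04 to 7.18), 6 of 7 skeletal muscle markers and 4 of 7 keratinocyte markers were lower in tumors. Their part in the results was not tested.

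**Figure D4:**
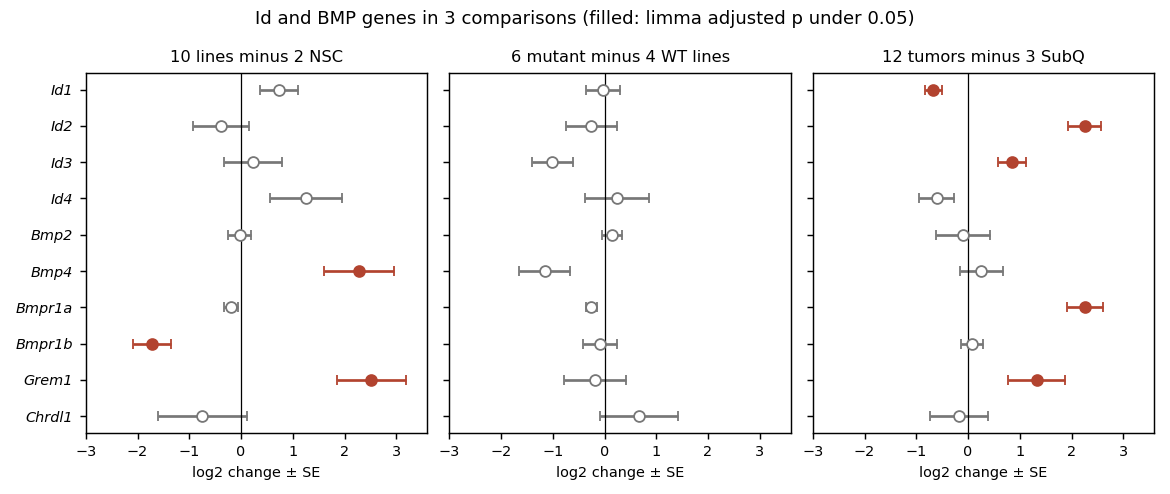
Log2 changes (horizontal axis) of the 10 genes with standard errors in lines against normal NSCs, p53 mutant against WT lines, and tumors against SubQ tissue, on a common axis; filled points passed limma at an adjusted p under 0.05. Bmp4, Grem1 and Bmpr1b passed in the first, none in the second, and Id1, Id2, Id3, Bmpr1a and Grem1 in the last.

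Of the 62 surrounding genes 46 passed in tumors against SubQ tissue, 15 higher and 31 lower, where 76.5% of all genes passed, 30.7% higher and 45.8% lower. Their median change was -0.33, against -0.28 over all genes. Of the 11 ligands 9 were lower and none higher, with Bmp5 at -1.48 ± 0.18, Bmp10 at -1.40 ± 0.16 and Gdf2 at -1.36 ± 0.19. Mean Bmp5 and Gdf2 of the tumors, and mean Bmp10 of both groups, lay below the 25th percentile of gene means, where signal can be background, so the sizes of these differences are uncertain. Of the 8 SMADs and ligases 5 were higher and 1 lower: Smurf2 rose by 2.81 ± 0.24, Smad4, the common partner, by 1.89 ± 0.19 and Smurf1 by 1.55 ± 0.27. Of the 16 antagonists and regulators 5 rose, led by Fstl1 (3.13 ± 0.35) and Bmp1 (2.27 ± 0.34), a protease that cleaves chordin, and 9 fell, among them Cer1 (-1.53 ± 0.22), which lay below that percentile in tumors. Of the 11 helix-loop-helix genes, the E protein genes Tcf4 (2.57 ± 0.20) and Tcf12 (2.21 ± 0.20) rose and 7 passed as lower. One of these, Neurod4 (-1.97 ± 0.18), lay below that percentile in both groups, and the size of its difference is uncertain.

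Of the 9 receptors and co-receptors 3 were called higher and 1 lower in tumors, by limma. Acvr1 rose by 2.20 ± 0.29. Bmpr2 rose by 0.81 ± 0.26 as deposited but was -0.88 after quantile normalization and lost its call without the first SubQ sample (0.33). Acvr2a, a type II receptor, likewise went from 0.73 ± 0.26 to -0.46 and was lost without the first (0.35) or the second SubQ sample (0.73). Of 7 other BMP targets 4 were lower and none higher. Dlx5, below the 25th percentile in tumors, fell by 1.67 ± 0.18, Msx1 fell by 0.95 ± 0.15 and Msx2 fell by 0.66 ± 0.21, the last with no call without the first SubQ sample (-0.46) or after quantile normalization (-0.25).

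The 4 tumor lines were set against one another with limma's moderated F test, in which 2 of the 10 genes passed, where 5.07% of all genes did. Bmpr1a was 9.62, 9.87 and 9.64 in line 1 tumors, 8.66, 8.13 and 8.25 in line 31, 9.07, 8.77 and 8.77 in line 59, and 8.68, 8.98 and 8.43 in line 123. The line 1 tumors were highest, above all 9 others, as held in either direction for 5.11% of genes, and the means spanned 1.36 (limma adjusted p = 0.0042). Against the mean of the other lines, Bmpr1a was 1.07 ± 0.15 higher in line 1 (adjusted p = 0.00149, where 4.62% of genes passed). In line 31 Bmpr1a was 0.74 ± 0.15 lower, written -0.74 (adjusted p = 0.0293, where 1.39% passed). That second call was lost without the second (-0.72) or the third (-0.75) line 1 tumor, the second (-0.64) or the third (-0.69) line 31 tumor, or the first line 123 tumor (-0.75), with adjusted p up to 0.076 without 1 tumor.

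Chrdl1 was 6.33, 4.92 and 5.17 in line 1 tumors, 8.30, 7.04 and 8.03 in line 31, 5.69, 5.36 and 6.85 in line 59, and 5.75, 6.98 and 6.24 in line 123. The line 31 tumors lay above all others; such a gap in either direction was found for 2.33% of genes. The means spanned 2.32 (limma F test, adjusted p = 0.0475), and line 31 was 1.87 ± 0.39 above the mean of the other lines (adjusted p = 0.0393). Markers of other cells moved with these lines. Line 1 had 2 of 11 endothelial and 2 of 8 fibroblast markers called higher and 2 of 8 macrophage markers called lower. Mean endothelial levels were 6.86 to 7.09 in line 1 tumors and 5.95 to 6.45 in the others, and mean fibroblast levels 8.95 to 9.05 and 8.04 to 8.60. Line 31 had 1 macrophage marker called higher and 1 endothelial marker called lower. Their part in the Bmpr1a and Chrdl1 results was not tested. Both Chrdl1 calls rested on the full set. The F test was lost without the second or the third line 1 tumor, the first or the third line 31 tumor, the first or second line 59 tumor, or any line 123 tumor, with spans of 2.04 to 2.32 and adjusted p from 0.0546 to 0.178. It was also lost with arrays centred (2.34), after quantile normalization (2.29), and at the full span of 2.32 with trend and robust settings or the replicate block. The line 31 call was lost without the same tumors other than the second of line 123, at 1.61 to 1.85, and at 1.87 with trend and robust settings or the block.

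Apart from Bmpr1a and Chrdl1 the genes did not pass between tumor lines. Of the 10, 7, these 2 included, had an unadjusted p under 0.05 in limma's F test, as did 4122 of all 19937 genes. Of the Id genes, Id2 was 7.64, 7.31 and 7.90 in line 31 tumors and 7.12, 7.08 and 6.28 in line 59 tumors, the highest and lowest lines (span of means 0.79, adjusted p = 0.144). Id3 was 5.73, 6.24 and 5.28 in line 31 and 6.28, 6.87 and 6.48 in line 123 (span 0.79, adjusted p = 0.203). Id4 was 5.69, 5.96 and 5.34 in line 31 and 6.36, 6.56 and 6.73 in line 59 (span 0.89, adjusted p = 0.133). Line 31 tumors thus had the highest mean Id2 and the lowest mean Id3 and Id4, though none of these spans passed.

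Bmp4 was 5.59, 6.15 and 5.5 in line 1 tumors, 6.97, 7.67 and 5.48 in line 31, 6.19, 6.34 and 6.61 in line 59, and 7.24, 7.06 and 7.66 in line 123. The third line 31 tumor stood below the other 2 of its line; without it the F test passed for Bmp4 (span 1.57 in both fits, limma adjusted p = 0.0039, against 0.144 with it), as did line 1 against the others (-1.26, adjusted p = 0.00229, against -1.05). Grem1 was lowest in line 59, at 6.50, 6.11 and 6.93, and highest in line 1, at 7.46, 9.35 and 8.45. Line 59 did not overlap the other tumors for Grem1 (-1.57 ± 0.44, adjusted p = 0.128), as held for 2.54% of genes. No gene of the 10 passed in line 59 or line 123, where 1.17% and 0.848% of all genes did. In these lines 3 and 1 of the 10 had an unadjusted p under 0.05, as did 2556 and 2436 of all 19937 genes. Chrdl1 in line 1 (-1.22, adjusted p = 0.109) passed without the first line 1 tumor (-1.65).

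Of the 62 surrounding genes 2 passed limma's F test between tumor lines, where 5.07% of all genes did. Hey1, a Notch and BMP target, spanned 1.85 (adjusted p = 0.00422), at -1.22 in line 31 (adjusted p = 0.0118, lost without the first line 31 tumor at -1.20) and 1.25 in line 59 (adjusted p = 0.00794). Fstl1 spanned 1.21 (adjusted p = 0.0265), and this call was lost without the second or the third line 1 tumor, the first line 31 tumor or any line 59 tumor, at 1.04 to 1.31. Twsg1 was 0.74 higher in line 1 (adjusted p = 0.0256), a call lost without the second (0.58) or the third (0.73) line 1 tumor.

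Across all 4 kinds of sample the genes were ordered by their percentile among all genes of the same array, which does not need a common scale. The 25th percentile and median of gene means were 5.38 and 5.85 in SubQ tissue, against 4.75 and 5.72 in tumors. A small difference in level thus moved a percentile further in SubQ tissue, which limits its place in these orders. Id1 had its highest median percentile in SubQ tissue (86.2), followed by the lines (64.1), the tumors (51.8) and the NSCs (51.7). The SubQ samples ranged from 47.3 to 87.0 and overlapped all other kinds, and the tumors overlapped the NSCs. Id4 had the same leading pair, with 87.4 in SubQ tissue and 80 in the lines before 60.6 in NSCs and 59.4 in tumors, and neighbours in this order overlapped. Id2 was at 81.1 in tumors, 80.9 in NSCs and 77.2 in lines, which overlapped, and at 29.5 in SubQ tissue, where its highest sample (45.2) reached only the lowest line (42.5). Id3 went from 74.5 in lines through 69.2 in NSCs and 60.9 in tumors, where neighbours overlapped, to 26.0 in SubQ tissue, below every other array.

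In the same order of percentiles Bmp4 and Grem1 were lowest in NSCs (32.2 and 45.0). Bmp4 was at 78.4 in lines, 68.4 in SubQ tissue and 66.8 in tumors, and Grem1 at 88.6 in lines, 85 in tumors and 55.4 in SubQ tissue. These 3 kinds overlapped for both genes. Bmpr1b was highest in NSCs (70.3), above every other array, followed by 44.5 in tumors, 33.0 in lines and 24.5 in SubQ tissue, which overlapped. Bmpr1a was at 94.6 or above in NSCs, lines and tumors and at 71.4 in SubQ tissue, where the highest sample (94.5) lay inside the ranges of the lines and tumors. Chrdl1 was at 88.1 in NSCs, 81.5 in lines, 81.3 in SubQ tissue and 63.6 in tumors, with the lines (39.8 to 95.3) and tumors (30.2 to 91.5) covering all the others. Bmp2 stayed low, at 18.7 in lines, 19.4 in NSCs, 25.4 in SubQ tissue and 35.0 in tumors, with overlap throughout.

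Lines 31, 59 and 123 were measured both in culture and as tumors. Because the cell and tissue arrays may have been normalized apart, these arrays were quantile normalized together. The differences are given as a description, with no test. Id1 was 7.61 in cultured line 31 and 6.26, 6.27 and 6.27 in its tumors, 7.19 in line 59 and 6.09, 6.29 and 5.98 in its tumors, and 6.56 in line 123 and 6.12, 6.12 and 6.10 in its tumors. All 9 tumors thus lay below their own line for Id1, with differences of -1.35 to -0.44 and a median difference of -1.10. Of all genes, 23.9% were lower in all 9 tumors, 2.32% with a median difference of at least 1, and 15.7% were higher. The tumors had near equal Id1 levels whichever line they came from, while the cultures differed. Tumor Id1 lay near the median gene, at a median percentile of 51.8 over the tumors. Some deposited tumor values of Id1 were identical, as given with the comparison to SubQ tissue. Id4 was lower in 8 of 9 tumors (median difference -1.02), from 8.26 in cultured line 31 to 6.10, 6.30 and 5.72 in its tumors. Id3 was lower in 7 of 9 (median difference -0.58).

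Id2 did not share this pattern. Mean differences from culture were 0.34 in line 31, -0.85 in line 59 and 0.86 in line 123, so that Id2 was higher in 6 and lower in 3 tumors. With arrays centred on their medians in place of quantile normalization, the line 31 difference was 0.099, and 4 tumors were lower, 1 of them of line 31. Chrdl1 was lower in all tumors of lines 59 (mean difference -1.71) and 123 (-2.34) and on average higher in line 31 (0.63), the line whose tumors held the most Chrdl1. Bmp4 was lower in 7 of 9 tumors (median difference -0.78), Bmp2 higher in 8 (0.61) and Bmpr1b higher in 7 (0.47). Mean Bmp2 of the cultured lines lay below the 25th percentile of gene means, where signal can be background. The size of the Bmp2 difference is thus uncertain. Grem1 was lower in 4 and higher in 5. Bmpr1a was lower in 5 of 9 (median difference -0.076) after quantile normalization but in 8 of 9 (-0.22) with arrays centred. Centring also gave 8 lower for Id3, 3 for Grem1, 1 for Bmpr1b and 0 for Bmp2, and left the counts of Id1, Id4, Bmp4 and Chrdl1 as they were.

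Of the 62 surrounding genes, 11 were lower and 10 higher in all 9 tumors, shares of 17.7% and 16.1%, against 23.9% and 15.7% of all genes. Of the 7 other BMP targets 3 were lower in all 9 and none higher, namely Msx2 (median difference -1.14), Atoh8 (-0.64) and Dlx5 (-0.56). The inhibitory Smad7 (-0.63) and Smad6 (-0.51) were lower in all 9 too. Among antagonists 4 of 16 were lower in all 9, among them Crim1 (-1.76) and Bmper (-1.16), and 4 were higher, among them Bmp1 (1.23) and Fst (1.17). These names were chosen after their values were seen. All 8 macrophage and all 8 fibroblast markers and 8 of 11 endothelial markers were higher in all 9 tumors than in culture by medians of 3.33, 1.72 and 0.71. Their part in these differences was not tested.

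**Figure D5:**
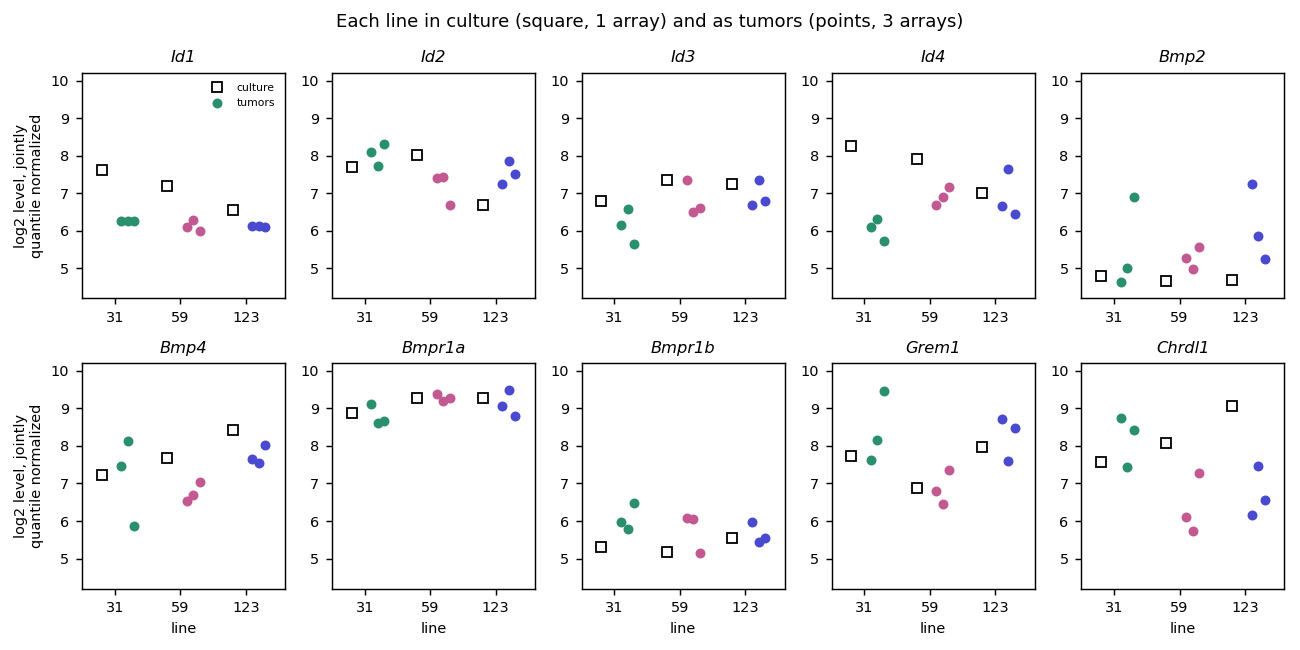
Log2 levels after joint quantile normalization (vertical axis) of the 10 genes in lines 31, 59 and 123 in culture (squares, 1 array) and in their tumors (points, 3 arrays a line). For Id1 all 9 tumors lie at 5.98 to 6.29, below the cultures at 6.56 to 7.61; no test was made.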

How the data were processed

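Total RNA of 27 samples, taken with Trizol, was labelled with biotin from 100 ng and hybridised to Affymetrix arrays, per the labels' protocols. For each probe set a log2 level was deposited, made by the authors with RMA, GCOS and Affymetrix Expression Console, per the submitters' processing notes, in which versions and order are absent. The genome build of the annotation is not given in the sources used here. Of 34760 probe sets, 21640 with 1 gene were used, 1321 with several genes and 11799 with none were left out, and for 954 genes with several probe sets the one with the highest mean was used. For arrays, the number of samples limits the precision.

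The comparisons were lines against NSCs, p53 mutant against WT lines, tumors against SubQ tissue, tumor lines by a moderated F test, and each tumor line against the mean of the others. Each was fitted across all 19937 genes in limma 3.58.1 (R 4.3.3) with lmFit and eBayes, on the arrays compared. Tests were 2-sided, the Benjamini-Hochberg adjustment covered the whole table, and calls needed an adjusted p below 0.05. The code was tested on simulated data. Promoter windows and figures were made with pandas 2.3.3, numpy 2.4.6 and matplotlib 3.10.9 in Python 3.11.15.

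The 10 genes, the lists and the tests were chosen with earlier results of these data known. Named in every comparison were the 10 genes, and of the pathway lists up to 8 called genes with the largest change and up to 3 per list; for each Id gene the 3 genes with the highest Pearson r were named, among genes more variable than the median gene. Replicate numbers do not pair samples: same-numbered tumors and SubQ samples had correlations of deviations from -0.28 to 0.34. Alternatives were other probe set, level filter, eBayes, scaling and grouping choices, omission of single arrays, and a block for the replicate number.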

Additional observations from a re-analysis of the deposited data

Results flagged for a closer look

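Single lines stood far from the rest of their group in 6 of 30 gene and group checks, where chance flags about 1 in 20. The mutant and WT lines were also checked together as all lines, so the checks were not independent. The same value could be flagged again, and the 2 rates cannot be set against each other directly. Bmp2 was 6.79 in line 95, with the next highest line at 5.82, which set it apart both among the mutant lines and among all lines. Bmpr1b was 7.86 in line 116, again in both groups. Id4 was 11.45 in line 95, with the next line at 9.58. Bmp4 was 8.46 in line 331, below the other WT lines. Between tumor lines, Bmpr1a (span of means 1.36) and Chrdl1 (span 2.32) differed by limma's F test. For Id2 the tumors of line 59 all lay below their culture (mean difference -0.85), while those of lines 31 (0.34) and 123 (0.86) all lay above theirs after quantile normalization. With arrays centred, 1 line 31 tumor lay below its culture and the mean difference of that line was 0.099; this difference between lines was not tested.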

How the results depend on the processing

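The normal NSCs had 2 arrays and the SubQ group 3, so results against them rest on few samples. The number of the 10 genes called in lines against NSCs was 3 in the reported fit, 0 to 3 with an array left out and 1 with the mutant lines alone. In tumors against SubQ tissue it was 5, and 4 to 6 with an array left out. Between tumor lines it was 2, and 1 with trend and robust settings, 1 with arrays centred, 1 after quantile normalization, 1 with the replicate block, and 1 to 2 with an array left out. For line 31 tumors it was 2, and 1 with trend and robust settings, 1 with the block and 0 to 2 with an array left out; for line 1 tumors it was 1, and 1 to 2. It stayed at 0 for mutant against WT lines and for lines 59 and 123. The causes were not tested. The block used replicate numbers that do not pair the samples, and it turned no call of the 10 genes other than those of Bmp4 and Id4 in lines against NSCs and Chrdl1 between tumor lines. In lines against NSCs the block compared only lines 3 and 28 with the NSCs, as only these shared a number with them. The mutant and WT lines share no replicate number, so no block was fitted for that comparison. Of the 62 surrounding genes 46 were called in tumors against SubQ tissue, and 20 among genes above the median level, a setting that leaves out the dimmer ones. After quantile normalization Bmpr2 (-0.88), Acvr2a (-0.46), Neurod1 (0.31) and Olig1 (0.017) changed direction in tumors against SubQ tissue.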

Other observations

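Between the 10 genes, correlations of log2 levels were described over the 10 lines and, apart from them, over the 12 tumors, which share 4 lines; 45 pairs were computed in each, and those named here were chosen after their values were seen. Over the lines Id1 and Id2 moved together (Pearson r = 0.77, Spearman rho = 0.75, r = 0.69 without the 2 lines farthest from the median), as did Id3 and Bmpr1a (r = 0.76, rho = 0.79, r = 0.71). Id4 and Bmp2 had r = 0.83 over the lines but r = -0.29 without 2 lines, so that relation rests on them. Over the tumors Id3 and Id4 had r = 0.70, rho = 0.69 and r = 0.71 without 2 tumors, and Id2 and Id4 had r = -0.61, rho = -0.71 and r = -0.42.

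The genes whose pattern was most like that of each Id gene differed between tumors and cells. Over the 12 tumors, among 9492 genes, they were Ulk1 (r = 0.84), Cd82 (0.80) and Rex1bd (0.78) for Id1, whose SD there was only 0.12; Olfr48 (0.92), Ranbp6 (0.89) and Micos10 (0.89) for Id2; Nek6 (0.93), Irf1 (0.91) and Tm7sf3 (0.91) for Id3; and Trav14-1 (0.88), C2cd5 (0.88) and Tnrc6c (0.85) for Id4. Over the 12 cell arrays, among 9555 genes, they were Tnni2 (0.85), Shox2 (0.83) and Adtrp (0.80) for Id1, Mrps14 (0.81), Pilra (0.78) and Tceal5 (0.76) for Id2, Mrgpra6 (0.90), Grb14 (0.89) and Nisch (0.88) for Id3, and Zfp263 (0.89), Galnt15 (0.89) and Iapp (0.88) for Id4. These are the highest among all these genes over 12 arrays and carry no test.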
